A study of Mus musculus with 6 samples.

Results

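The 7 genes described here encode the enzymes that switch the pyruvate dehydrogenase complex off and on: the kinases Pdk1, Pdk2, Pdk3 and Pdk4, the catalytic phosphatase subunits Pdp1 and Pdp2, and the phosphatase regulatory subunit Pdpr. They were taken by gene symbol out of a table of 54532 genes, and all 7 were found. RNA was sequenced from hearts of ICR mice (an outbred strain) of wild-type genotype, in libraries whose titles carry 4d, read here as day 4; the labels give no other age. In the STZ group (n = 3) the pregnant mother received intraperitoneal STZ, read here as streptozotocin, a toxin of the insulin-producing beta cell that is used to model diabetes in pregnancy. In the control group (n = 3) she received citric acid by the same route. The labels give neither the dose nor the litter of any heart, so p-values measure only the spread between these 6 samples, and effects of the mother's glucose and of the toxin itself cannot be told apart.

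The pyruvate dehydrogenase complex turns pyruvate from glycolysis and lactate into acetyl-CoA inside mitochondria. Its kinases phosphorylate the alpha subunit, Pdha1, and stop the complex, which spares pyruvate and leaves fatty acids as the main fuel; the phosphatases remove the phosphate and restart it. The mouse heart moves from glucose and lactate toward fatty acids in the days after birth. Pdk4 is the isoform known to be induced by fasting, fatty acids and glucocorticoids and to be repressed by insulin, and Pdk2 is the isoform known to be widely expressed in oxidative tissue.

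The promoter windows of Pdk4 and Pdk2 are shown because these genes gave the larger part of the summed kinase FPKM (a level scaled to gene length and sequencing depth) and differed in how they varied between hearts. Each window is 300 bases from RefSeq on GRCm38.p6, minus strand, 5′ to 3′, with 250 bases before the annotated start in lower case and the 50 bases from the start on in capitals. The Pdk4 window lies at chr6:5496229-5496528 and the Pdk2 window at chr11:95041322-95041621.
Pdk4: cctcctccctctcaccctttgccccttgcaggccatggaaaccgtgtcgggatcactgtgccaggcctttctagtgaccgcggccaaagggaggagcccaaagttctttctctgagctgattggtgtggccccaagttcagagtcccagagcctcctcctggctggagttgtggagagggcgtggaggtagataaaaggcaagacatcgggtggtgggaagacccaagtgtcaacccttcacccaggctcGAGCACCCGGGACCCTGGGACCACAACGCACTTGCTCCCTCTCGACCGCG
Pdk2: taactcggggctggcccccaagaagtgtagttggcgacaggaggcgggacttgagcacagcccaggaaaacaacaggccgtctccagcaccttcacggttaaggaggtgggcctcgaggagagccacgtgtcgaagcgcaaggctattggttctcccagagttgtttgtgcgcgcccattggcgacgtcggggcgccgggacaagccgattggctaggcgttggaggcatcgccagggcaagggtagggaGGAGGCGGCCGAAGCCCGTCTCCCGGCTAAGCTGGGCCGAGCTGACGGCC
The Pdk4 window held 12 CpG dinucleotides and the Pdk2 window shown 25, against a median of 7 over 32544 windows of the same length. Pdk2 has a further RefSeq window, at chr11:95040826-95041125 and not shown, which held 13, so the contrast with Pdk4 depends on the window taken.

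Windows were matched for 6 of the 7 genes, all but Pdp1 (8 windows), and were searched on both strands for motifs of factors known to act on Pdk4 or Pdk1. Only the exact strings given here were searched, so a window without a match can still hold a variant of the motif. The nuclear receptor motif AGGTCA, held by 16.2% of all windows, was in none of the 6 genes' windows, so neither was the direct repeat of this motif with 1 base between (0.0399% of all windows). The forkhead motif GTAAACA (3.66% of all windows) and the glucocorticoid motif, AGAACA followed after 3 bases by TGTTCT (0.00922%), were not in them either. The hypoxia motif TACGTG, held by 3.24% of all windows, occurred once, at positions -54 to -49 from the RefSeq start of Pdk3, base 93832150. The deposited position of Pdk3 starts at base 93832201 instead, so this distance holds for the RefSeq start only. The motif is given in capitals in the following 30 bases of chrX:93832187-93832216, minus strand.
Pdk3: acgcgcgccgcgTACGTGcggcggcagatc
These letters describe the windows only and say nothing of whether a factor binds there or elsewhere.

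The libraries held between 16707268 and 18082599 reads recovered from the deposited values. Markers of heart muscle were high in all 6, with summed levels of 14060 to 15340 FPKM over 10 cardiomyocyte genes in STZ hearts and 16280, 6966 and 13830 FPKM in controls 1, 2 and 3. Control 2 stood apart. Its summed level over 9 atrial markers was 6242 FPKM, against 55.3 to 140.1 FPKM in the other 5 libraries, over 6 thymus markers it was 97.8 FPKM, against 0.678 to 2.26 FPKM, and Ucp1, which marks brown fat, was at 213 FPKM there and listed at 0 in the others. Its mitochondrial share of reads was 6.84%, against 12.01% to 14.0% in the others, and its haemoglobin share 1.37%, against 0.176% to 0.380%. Relative to the mean of controls 1 and 3, summed fibroblast, macrophage and erythroid markers were 1.77, 2.02 and 3.87 times as high in control 2. Without control 2, fibroblast markers had 0 of 10 tested genes above 0 between STZ and control hearts (median log2 difference -0.17). Erythroid markers had 0 of 6 (-0.39), epicardial and mesothelial markers 0 of 8 (-0.29) and endothelial markers 0 of 8 (-0.07). Smooth muscle and pericyte markers had 2 of 7 above 0 (-0.08), cardiomyocyte markers 7 of 10 (0.02), atrial markers 5 of 7 (0.14) and macrophage markers 6 of 8 (0.04). Of all genes, 49.5% were above 0 in that fit. With all 6 libraries, 0 of these markers passed the threshold. Control 3 had Xist at 70.6 FPKM, against at most 0.0541 FPKM in the other 5, and was the only library with the 4 Y-linked genes looked at summing to 0. Read by these genes, control 3 was female and the other 5 libraries were male. The STZ hearts were thus all male and the controls mixed, and the part of sex in any difference was not tested. Fewer cells of a type and less RNA per cell cannot be told apart in RNA of bulk tissue. The part that these markers play in any difference was not tested.

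No member passed the test between STZ and control hearts. With limma on log2(FPKM + 1), 0 of the 7 had a Benjamini-Hochberg adjusted p under 0.05, where 0.0241% of all 12431 genes tested did (2 higher and 1 lower in STZ hearts), and 0 of the 7 had an unadjusted p under 0.05, against 2.59% of genes. Voom on recovered reads also called 0 of the 7. All 7 members passed the filter of at least 1 FPKM in 3 samples. The groups overlapped in all 7, while 8.54% of genes tested had groups that did not overlap. Differences were above 0 for 6 members and below 0 for 1, with a median of 0.20 log2 units against 0.03 over all genes, of which 57.7% were above 0. Without control 2 they were above 0 for 2 members, where 49.5% of all genes were, and the median was -0.06, against -0.0014 over all genes. The direction of most members thus rested on that 1 library, without which 0 of the 7 and 0.0409% of genes had an adjusted p under 0.05.

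**Figure D1:**
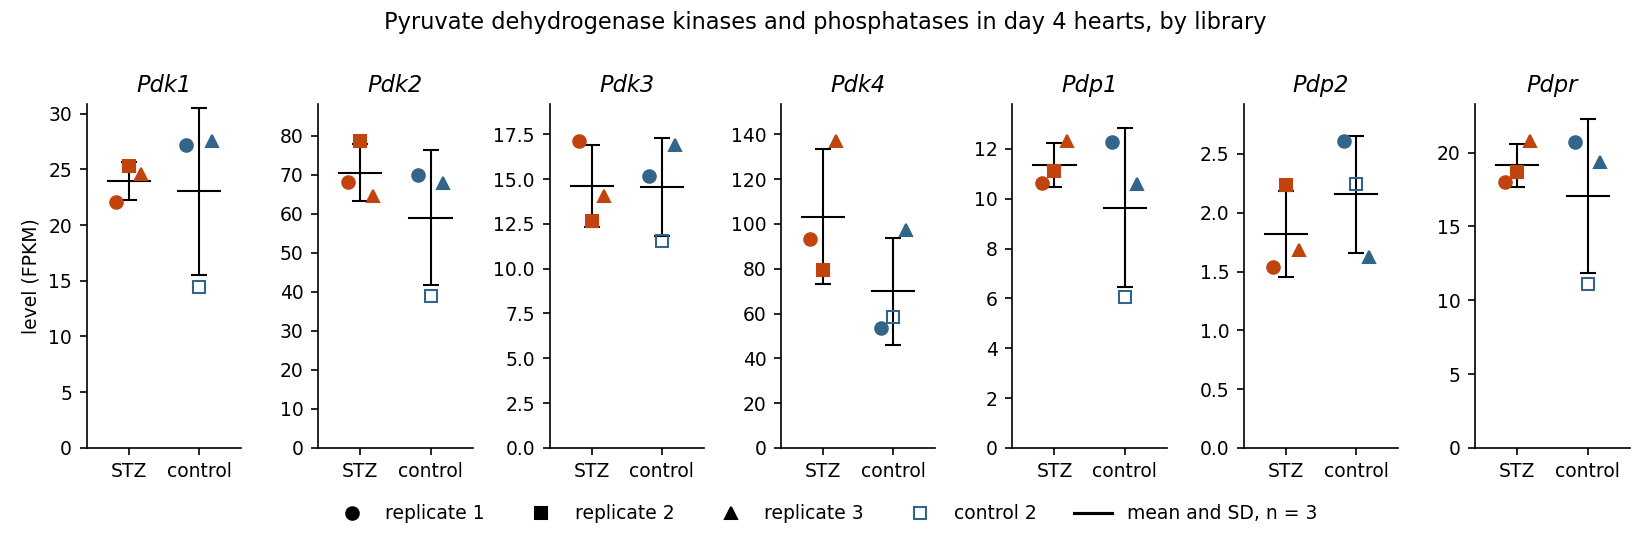
Level of each gene in FPKM (vertical axes from 0) in STZ hearts (left, red) and control hearts (right, blue); each point is 1 library, the symbol gives its replicate number, control 2 is open, and the bar and whiskers are the mean and SD of n = 3. Control 2 was the lowest library for Pdk1, Pdk2, Pdk3, Pdp1 and Pdpr but not for Pdk4 or Pdp2, and the groups overlapped for all 7 genes.

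Pdk4 (ENSMUSG00000019577, GRCm38 chromosome 6, 5483351 to 5496309, minus strand) was the most abundant member and had the largest difference. It stood at 93.2, 79.2 and 137.0 FPKM in STZ hearts 1 to 3, against 53.7, 58.4 and 97.5 FPKM in control hearts 1 to 3. STZ 3 was the highest of all 6, controls 1 and 2 were the lowest, and control 3 lay above STZ 1 and STZ 2, so the groups overlapped. The means were 103 ± 30.1 FPKM in STZ hearts and 69.8 ± 24.1 FPKM in control hearts (SD, n = 3 each). The log2 difference between STZ and control hearts was 0.57 (SE 0.29; 95% interval -0.12 to 1.26; limma, adjusted p = 0.922). An exact two-sided permutation test over the 20 assignments gave p = 0.3, and with 3 samples a group such a test cannot go below 0.1. The Pdk4 difference was 0.47 without control 2 (interval -0.28 to 1.22), 0.83 without control 3 and 0.35 without STZ 3, so it was above 0 in each but moved with single libraries.

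Pdk2 (ENSMUSG00000038967, chromosome 11, 95026258 to 95041354, minus strand) was the second most abundant kinase. It was at 68.2, 78.6 and 64.6 FPKM in STZ hearts 1 to 3, against 70.04, 39.0 and 67.9 FPKM in control hearts 1 to 3. Control 2 alone was low, and the other controls lay inside the STZ range. Its log2 fold change was 0.29 (SE 0.239; limma, adjusted p = 0.922), and 0.03 without control 2, with an interval from -0.23 to 0.28.

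Pdk1 (ENSMUSG00000006494, chromosome 2, 71873224 to 71903858, plus strand), the isoform known as a target of the hypoxia factor Hif1a, was at 22.1, 25.3 and 24.6 FPKM in STZ hearts 1 to 3, against 27.2, 14.4 and 27.5 FPKM in control hearts 1 to 3. Controls 1 and 3 lay above every STZ heart and control 2 below every one. For Pdk1 the log2 fold change was 0.11 (SE 0.246; limma, adjusted p = 0.940) with all libraries and -0.18 (SE 0.0881; interval -0.40 to 0.03) without control 2, where it also turned in sign. That value was not past the threshold either (limma, adjusted p = 0.9998).

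Pdk3 (ENSMUSG00000035232, chromosome X, 93764607 to 93832201, minus strand), known mainly from testis and brain, was the least abundant kinase. It was at 17.1, 12.6 and 14.04 FPKM in STZ hearts 1 to 3, against 15.2, 11.5 and 16.9 FPKM in control hearts 1 to 3. Control 3, the 1 library with Xist above 1 FPKM, was the second highest after STZ 1. The log2 fold change was 0.01 (SE 0.173; interval -0.40 to 0.42; limma, adjusted p = 0.994), and its sign changed with the scaling: -0.051 when scaled to recovered reads and -0.0037 after quantile normalization.

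Pdp1 (ENSMUSG00000049225, chromosome 4, 11958184 to 11966452, minus strand) encodes the calcium-stimulated phosphatase subunit of muscle. It was at 10.6, 11.1 and 12.3 FPKM in STZ hearts 1 to 3, against 12.3, 6.07 and 10.6 FPKM in control hearts 1 to 3. Controls 1 and 3 fell within or at the edges of the STZ range and control 2 far below it. For Pdp1 the log2 fold change was 0.26 (SE 0.232; limma, adjusted p = 0.922), and -0.0082 without control 2, with an interval from -0.26 to 0.24.

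Pdp2 (ENSMUSG00000048371, chromosome 8, 104591451 to 104599026, plus strand), the insulin-sensitive phosphatase subunit known from liver and fat, was the lowest member and the only one with a negative difference in all 6 libraries. It was at 1.54, 2.24 and 1.69 FPKM in STZ hearts 1 to 3, against 2.61, 2.24 and 1.62 FPKM in control hearts 1 to 3. Control 1 was the highest, while STZ 2 and control 2 were alike. The log2 fold change was -0.16 (SE 0.164; interval -0.55 to 0.23; limma, adjusted p = 0.922), and -0.13 without control 2. Its reads numbered between 156 and 273 per library, the fewest of the 7.

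Pdpr (ENSMUSG00000033624, chromosome 8, 111094630 to 111137074, plus strand), which tunes the activity of the Pdp1 enzyme, was at 17.98, 18.7 and 20.8 FPKM in STZ hearts 1 to 3, against 20.7, 11.1 and 19.3 FPKM in control hearts 1 to 3. Again only control 2 was low. The log2 fold change was 0.20 (SE 0.227; limma, adjusted p = 0.922), and -0.06 without control 2, with an interval from -0.29 to 0.16. Pdpr, with a deposited gene length of 5028 bases, shares 169 exon bases with 9430091E24Rik on the opposite strand, at 6.22 to 10.5 FPKM. Since the strand setting is not given in the sources used here, reads within these shared bases cannot be told apart.

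**Figure D2:**
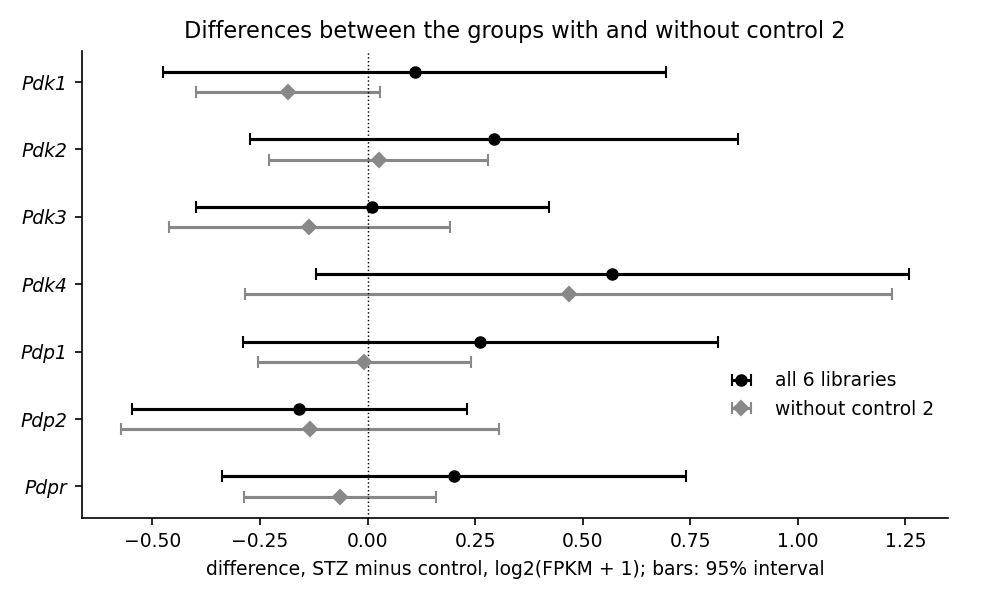
Difference between STZ and control hearts (horizontal axis, STZ minus control, log2(FPKM + 1)) for each gene, with all 6 libraries (black circles) and without control 2 (grey diamonds); bars are 95% intervals from limma. Every interval includes 0, and leaving out control 2 moved Pdk1, Pdk2, Pdp1 and Pdpr to 0.03 or below, while Pdk4 was at 0.57 with it and 0.47 without it.

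The order of levels over the 6 libraries, on the FPKM scale, was Pdk4 at a mean of 86.5, Pdk2 at 64.7, Pdk1 at 23.5, Pdpr at 18.1, Pdk3 at 14.6, Pdp1 at 10.5 and Pdp2 at 1.99 FPKM. The ranges of Pdk2 and Pdk1 were apart, as were those of Pdp1 and Pdp2, and all other neighbours overlapped in range. Pdk4 was above Pdk2 in 5 of 6 libraries, the exception being control 1, and Pdpr above Pdk3 in 5 of 6.

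Pdk4 made up 46.5%, 40.5% and 57.0% of the summed kinase FPKM in STZ hearts 1 to 3, against 32.3%, 47.3% and 46.5% in control hearts 1 to 3. Pdk2 made up 34.0%, 40.2% and 26.9% in STZ hearts, against 42.2%, 31.7% and 32.4% in control hearts. The shares thus overlapped between the groups, and Pdk4 and Pdk2 together gave the larger part in every library. The kinase sum was 201, 196 and 240.2 FPKM in STZ hearts and 166, 123 and 210 FPKM in control hearts. Kinase FPKM exceeded that of the catalytic phosphatases 16.5, 14.7 and 17.2 times in STZ hearts, against 11.2, 14.8 and 17.2 times in control hearts, again with overlap. Pdp1 gave 83.3% to 88.0% of the catalytic phosphatase FPKM in STZ hearts and 73.0% to 86.7% in control hearts.

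**Figure D3:**
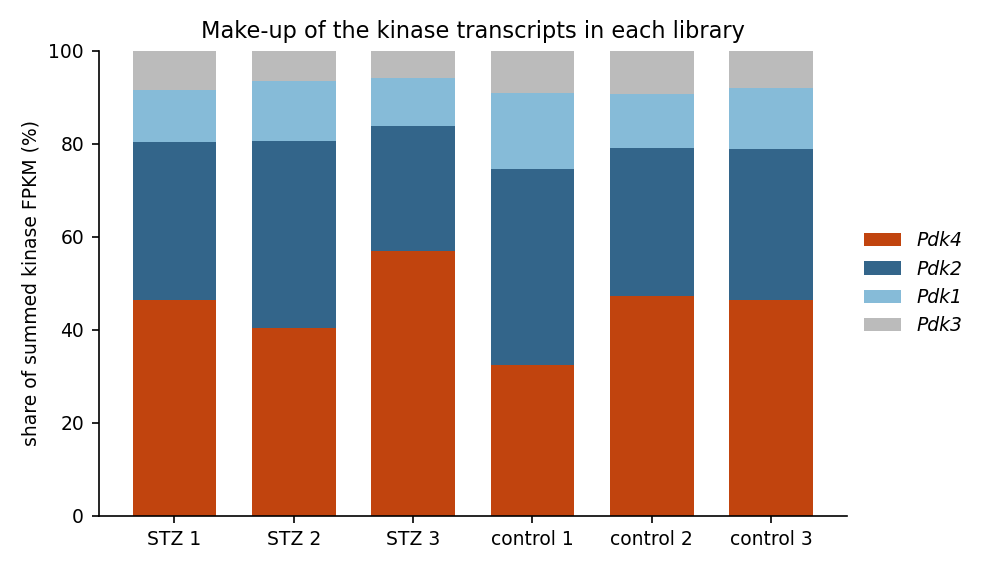
Share of each kinase in the summed FPKM of the 4 kinases (vertical axis, percent) in each library, STZ hearts at left and control hearts at right; each bar adds to 100 percent. Pdk4 ranged from 40.5% to 57.0% in STZ hearts and from 32.3% to 47.3% in control hearts, with the highest share in STZ 3 and the lowest in control 1.

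Most members were low in control 2, as were the subunits of the complex they act on. The level in control 2 divided by the mean of controls 1 and 3 was 0.527 for Pdk1, 0.566 for Pdk2, 0.531 for Pdp1 and 0.555 for Pdpr. The 5 expressed subunits of the complex had ratios between 0.556 and 0.669, and the summed cardiomyocyte markers had 0.463. Pdk3 at 0.719, Pdk4 at 0.772 and Pdp2 at 1.06 were less low there, and the median over all tested genes was 0.929. The part of the atrial, thymus and brown fat transcripts of control 2 in these levels was not tested. Set against Pdha1, the subunit the kinases phosphorylate, Pdk2 was at 41.3%, 46.5% and 39.0% of its FPKM in STZ hearts, against 35.2%, 36.8% and 40.9% in control hearts. Pdk4 was at 56.5%, 46.8% and 82.7% in STZ hearts, against 26.9%, 55.1% and 58.7% in control hearts. Relative to Pdha1, then, control 2 lay between controls 1 and 3 for both genes, though below every STZ heart for Pdk2, and the groups still overlapped. Of the 7 members, only Pdp1 had groups that did not overlap on this scale, at 6.43%, 6.58% and 7.43% in STZ hearts, against 6.16%, 5.73% and 6.38% in control hearts. That is 1 of 7 members, where 3.41% of the other tested genes had groups apart on the same scale. STZ 1 and control 3 were the closest, and no test was made of this ratio. Pdha1 was the only subunit used as the divisor, so the separation is not shown for the other subunits of the complex.

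**Figure D4:**
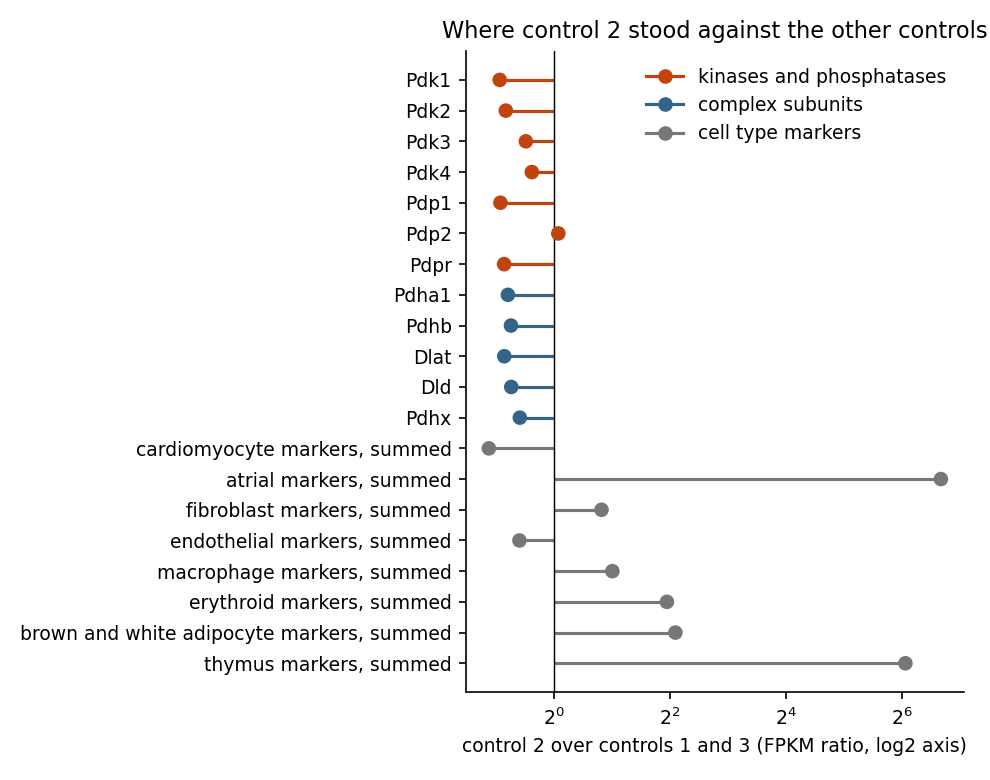
Level in control 2 divided by the mean of controls 1 and 3 (horizontal log axis, ratio of FPKM) for the 7 kinase and phosphatase genes (red), 5 subunits of the complex (blue) and summed cell type markers (grey). Pdk1, Pdk2, Pdp1 and Pdpr, between 0.527 and 0.566, sat near the subunits of the complex, which lay between 0.556 and 0.669. Pdk3 at 0.719, Pdk4 at 0.772 and Pdp2 at 1.06 lay above the subunits. Atrial and thymus markers were 102 and 66.5 times as high in control 2.

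Pdk4 had the widest spread between hearts of the 7. Its highest value was 2.55 times its lowest, and its coefficient of variation without control 2, 33.0%, was above that of 96.7% of the 706 tested genes with a mean within a factor of 2 of its own. Pdk1, Pdk2, Pdp1 and Pdpr had coefficients of 8.70%, 7.55%, 7.45% and 6.35% over the same 5 libraries, near or below the middle of genes of like level except for Pdk1, which was above 61.2% of them. Pdk3, at 12.6%, and Pdp2, at 23.9%, were above 78.7% and 75.9% of genes of like level. Pdk4 had at least 3172 reads in every library. The spread of Pdk4 lay within the groups as well as between them: controls 1 and 3 were at 53.7 and 97.5 FPKM. These 2 libraries also differed in summed erythroid markers, at 4927 and 2596 FPKM, in summed epicardial and mesothelial markers, at 28.96 and 52.6 FPKM, and in Xist, and the part of these in the Pdk4 spread was not tested.

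Among themselves, the likeness of several members depended on control 2. Over the 6 libraries, given as a description, Pearson's r on log2(FPKM + 1) was 0.92 between Pdk1 and Pdk2 and 0.99 between Pdp1 and Pdpr, but without control 2 it was 0.13 and 0.88. Pdk4 and Pdp2 ran in opposite directions, with r = -0.83 over 6 libraries and -0.82 over 5 without control 2. Pdk2 and Pdpr had r = 0.91 over 6 libraries and -0.41 over 5.

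The genes most like each member over the 6 libraries were those of highest r among 6693 protein-coding genes with a mean of at least 5 FPKM. For Pdk4 they were Cog2, Hjurp and Kdm3b, each with r = 0.98 and each with 0.97 without control 2. Cog2 spans only 5.85 to 6.39 FPKM in STZ hearts and 5.26 to 6.19 FPKM in control hearts, so likeness here is in order and not in size of change. For Pdp2 they were Ppp1r8, Tspan14 and Med22, and for Pdk3 Fbxw8, Yars2 and Dcps. For Pdk1 they were Naa15, Arhgap29 and Prrg3, for Pdk2 Eepd1, Ehd4 and Fars2, for Pdp1 Lamc1, Jup and Fli1, and for Pdpr Snx13, Sbf2 and Camk2d. As many as 378, 443, 479 and 528 of the 6693 genes had r of at least 0.95 with Pdk1, Pdk2, Pdp1 and Pdpr, against 11, 9 and 6 with Pdk3, Pdk4 and Pdp2. Pdk1, Pdk2, Pdk3, Pdp1 and Pdpr were lowest in control 2, as were 41.7% of all tested genes.

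Other genes of the pathway were read from 8 lists, and none of their tested members passed the limma threshold. Among subunits of the complex, 5 of 5 tested had a value above 0, with a median of 0.11, and 0 of 5 without control 2, with a median of -0.13. Pdha1 was at 167 ± 2.24 FPKM in STZ hearts and 157 ± 47.2 FPKM in control hearts, and Dlat, the acetyltransferase core, at 78.2 ± 2.61 and 68.9 ± 21.3 FPKM (SD, n = 3 each). Their log2 differences were 0.13 and 0.23, and -0.13 and -0.05 without control 2. The testis form Pdha2 was listed at 0 in all 6. Of 11 genes of pyruvate entry and lactate exchange, 6 were above 0 and 5 below, with a median of 0.0058, and 1 was above and 10 below without control 2, with a median of -0.05. Slc16a1, a lactate and pyruvate carrier, was at 60.01 ± 5.83 FPKM in STZ hearts and 49.3 ± 19.3 FPKM in control hearts. Its log2 difference was 0.36 with all libraries and -0.0030 without control 2, the lowest library at 27.6 FPKM. Pcx, pyruvate carboxylase, was at 1.56 ± 0.245 FPKM in STZ hearts and 3.25 ± 2.51 FPKM in control hearts, with its highest value, 6.12 FPKM, in control 2 (log2 difference -0.58, and -0.13 without that library).

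Lipoate attachment, which arms the complex with its cofactor, had 4 of 9 genes above 0 and a median of -0.04, and 5 of 9 and 0.0043 without control 2. Iba57 was at 5.01 ± 0.503 FPKM in STZ hearts and 4.42 ± 0.477 FPKM in control hearts (log2 difference 0.15, and 0.08 without control 2), and Lipt2 at 4.06 ± 0.143 and 4.496 ± 0.465 FPKM (log2 difference -0.12, and -0.19 without control 2). The kinase, phosphatase and subunits of the related branched-chain ketoacid complex had 4 of 5 above 0 and a median of 0.04, and 2 of 5 and -0.03 without control 2. Its subunit gene Bckdhb was at 16.3, 17.01 and 17.1 FPKM in STZ hearts, against 19.7, 23.5 and 19.3 FPKM in control hearts, so the groups did not overlap (log2 fold change -0.29, and -0.20 without control 2; limma, adjusted p = 0.922). The phosphatase gene Ppm1k was at 8.67 ± 0.824 FPKM in STZ hearts and 6.94 ± 2.604 FPKM in control hearts, a difference of 0.34 on the log2 scale that was 0.03 without control 2.

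Receptors and factors known to act on Pdk4 or Pdk1 had 14 of 18 tested genes above 0 (median 0.10), and 7 of 18 without control 2 (median -0.05). Ppargc1b, a coactivator of PPAR and ERR receptors, was at 9.34, 9.38 and 8.44 FPKM in STZ hearts, against 8.43, 3.62 and 7.96 FPKM in control hearts, with all STZ values higher by a narrow margin (log2 difference 0.46, and 0.13 without control 2). Pparg was at 2.12 ± 0.315 FPKM in STZ hearts and 3.12 ± 1.29 FPKM in control hearts (log2 difference -0.36, and -0.12 without control 2). Fatty-acid-inducible genes had 13 of 15 above 0 (median 0.28), and 9 of 15 without control 2 (median 0.02). Ucp3, a mitochondrial carrier of muscle that is induced by fatty acids like Pdk4, was at 9.22, 10.7 and 15.3 FPKM in STZ hearts, against 5.13, 5.73 and 10.02 FPKM in control hearts. As for Pdk4, STZ 3 was the highest and controls 1 and 2 the lowest, with control 3 inside the STZ range (log2 fold change 0.70, SE 0.267; limma, adjusted p = 0.922; 0.60 without control 2). Cpt1a, which admits fatty acids to mitochondria, was at 44.3 ± 3.97 FPKM in STZ hearts and 34.96 ± 7.08 FPKM in control hearts, with overlap (log2 difference 0.35, and 0.19 without control 2).

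Hypoxia-inducible genes had 11 of 14 above 0 (median 0.12) and 3 of 13 without control 2 (median -0.07). Kdm3a was at 7.12 ± 0.834 FPKM in STZ hearts and 6.06 ± 0.707 FPKM in control hearts, a log2 difference of 0.20 that was 0.13 without control 2. Vegfa was at 43.98 ± 4.296 FPKM in STZ hearts and 37.2 ± 6.86 FPKM in control hearts (log2 difference 0.25, and 0.09 without control 2). Glucocorticoid-inducible genes had 5 of 8 above 0, with a median of 0.04 and of 0.02 without control 2. Zbtb16, a zinc finger gene of this list, was at 1.16, 3.46 and 1.86 FPKM in STZ hearts, against 0.472, 0.602 and 0.692 FPKM in control hearts (log2 fold change 0.93, SE 0.261; limma, adjusted p = 0.922; 0.94 without control 2). All controls lay below 1 FPKM, so Zbtb16 passed the filter of 1 FPKM in 3 libraries through the STZ hearts alone. That its groups did not overlap thus follows from the filter, and its difference is given as a description only. Sgk1 was at 10.6 ± 2.02 FPKM in STZ hearts and 8.74 ± 3.17 FPKM in control hearts, with a log2 difference of 0.30 that was 0.02 without control 2.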

How the data were processed

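Per the labels' protocols, total heart RNA was made into libraries with a SMARTER mRNA-seq kit, and per the submitters' processing notes the build was GRCm38 (mm10). Aligner, counter and strandedness: not given in the sources used here. The authors deposited 1 table of FPKM-type values for 6 samples, a unit read from the table's abbreviation and from the values: multiplied by the deposited gene length, 100% of values above 0 were whole multiples of 1 step per sample within 0.01 reads. Divided by these recovered totals, the authors' scaling came to 1.21 for control 2, against 0.985 to 1.03 for the remaining 5 libraries.

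Groups come from the treatment labels and replicate numbers from the titles. Groups were compared on log2(FPKM + 1), two-sided, by limma (version 3.58.1; R 4.3.3) using its trended variance prior and no covariate. Genes needed 1 FPKM in 3 libraries, which left 12431, and p-values were Benjamini-Hochberg adjusted over them. Fold changes on this scale understate those of low genes. The limma fit was tested on simulated data that held no outlying library and differences larger than those of the members. That test therefore does not show how the fit fares on differences as small as these or with control 2. Members and lists were chosen with earlier results of these data known. From each list the 2 genes of lowest unadjusted p are named, and the 3 genes of highest r with each member. Positions of all 7 genes were the same in GENCODE, and blastn 2.17.0 found no transcript of another gene at 95% identity or more over 100 bases. Promoter windows are from RefSeq. No pair of libraries was a duplicate (chi-square per degree of freedom at least 11.8). Python 3.11.15 and matplotlib 3.10.9 made the figures.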

Additional observations from a re-analysis of the deposited data

How the results depend on the processing

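Under 18 alternatives, of which voom on recovered reads with and without TMM factors was chosen after seeing the data, no member passed the threshold (adjusted p from 0.689 to 1.0 in limma), and Pdk2 and Pdk4 kept a positive and Pdp2 a negative difference in each one that could be fitted; Pdp2 had no value with a mean of at least 5 FPKM. Over fits without 1 library, the log2 fold change ran from -0.18 to 0.26 for Pdk1, 0.03 to 0.44 for Pdk2, -0.14 to 0.12 for Pdk3, 0.35 to 0.83 for Pdk4, -0.0082 to 0.45 for Pdp1, -0.29 to -0.06 for Pdp2 and -0.064 to 0.36 for Pdpr. The sign turned without control 2 for Pdk1, Pdk3, Pdp1 and Pdpr, and for Pdk3 also without STZ 1. With array weights it turned for Pdk1 (-0.11), Pdk3 (-0.16) and Pdpr (-0.044). The Pdk3 value was -0.0037 with quantile normalization, -0.051 when scaled to recovered reads, -0.043 without sex-linked, mitochondrial and haemoglobin genes and -0.060 with voom; the cause was not tested. Calls over all genes were 3 in the analysis reported, 0 with the replicate number as a block (373 genes at an unadjusted p under 0.05), 8 with array weights, 1 with voom, and 2 to 5 over fits without 1 library, the 5 being those without control 2. Same-numbered samples did not deviate together (r of 0.02, -0.04 and 0.09). With 3 libraries a group, control 2 among them, this cannot exclude a pairing by number. With the replicate block Pdk4 had an SE of 0.149, against 0.290 without it, an unadjusted p of 0.0126 and an adjusted p of 0.935 in limma. Tests of negative binomial counts were not run, since the deposited unit is FPKM. Although fewer control libraries were left without control 2, the intervals of Pdk1, Pdk2, Pdk3, Pdp1 and Pdpr were narrower there, and those of Pdk4 and Pdp2 wider. Pdp2 had the fewest reads of the 7, 156 to 273 per library.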
